A study of Mus musculus with 9 samples.

Results

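CpG methylation was measured at Tnnt2, the mouse gene of cardiac troponin T, in embryonic heart muscle cells after knockdown of DNMT3a or DNMT3b. The gene was covered by 2 of the panel's amplified promoter regions, Tnnt2_1 and Tnnt2_2. Its members are every cytosine listed in CpG context in these regions with at least 30 reads in all 9 libraries. All 15 listed CpG sites met that minimum, 6 in Tnnt2_1 and 9 in Tnnt2_2, of 310 tested CpG sites in 26 regions of the panel. The 9 libraries were 3 of negative siRNA, 3 of DNMT3a siRNA and 3 of DNMT3b siRNA. All came from cardiomyocytes of the ventricles of mouse embryos (strain CD-1, embryonic day 13.5). Ventricles were pooled by litter, so a library does not represent a single animal. Cells of every group were cultured for 48 h and transfected with 0.012 pmol of siRNA. They were collected 72 h later and sorted magnetically on VCAM1, a surface protein of embryonic cardiomyocytes. The DNMT3a and DNMT3b reagents each combined 4 siRNAs, and the control was the AllStars negative control siRNA. Nothing in the labels says whether the libraries of a group were separate cultures or litters, so p-values measure only the spread between these libraries. RNA and the DNMT3 genes were not analysed here, so the degree of knockdown and the labelled cell type were not checked against markers. A library held 27193672 to 32543683 cytosine calls, and a Tnnt2 CpG was read 842 to 30687 times in Tnnt2_1 and 18241 to 92355 times in Tnnt2_2.

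Troponin T is the subunit that anchors the troponin complex to tropomyosin on the thin filament, and Tnnt2 encodes the form made in cardiac muscle. The complex also holds the inhibitory subunit, whose cardiac form is encoded by Tnni3, and the calcium-binding subunit of cardiac and slow muscle, encoded by Tnnc1. DNMT3a and DNMT3b methylate CpG sites de novo, and existing methylation is copied to new DNA strands by DNMT1. Bisulfite treatment lets an unmethylated cytosine be read as T and a methylated one as C. The methylation level of a site is therefore the percent of its reads that carry C. The labels compare the 3 siRNAs at promoter regions of heart and cell cycle genes, and the question for Tnnt2 is whether its level differs after either knockdown.

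The regions differ in how densely they hold CpG. Tnnt2_1 spans 447 bases with 118 listed cytosines and 1.34 CpG per 100 bases. Tnnt2_2 spans 351 bases with 63 listed cytosines and 2.56 CpG per 100 bases. Offsets below are the position of a cytosine within its amplicon, as the files number them. The files give no chromosome position for either amplicon. Tnnt2 lies on chromosome 1 from 135836315 to 135852268 on the + strand in GRCm38.p6 (the NCBI name of mm10). Neither amplicon matched either of the 2 RefSeq windows of the gene, which run from 250 bases before to 50 bases after a start. At best, 13.5% of the cytosines compared for Tnnt2_1 and 20.0% of those for Tnnt2_2 matched in position and base triplet. The cytosines compared were those of the amplicon and of the window together, where the 2 overlapped. In the same search 10 of 30 panel regions matched a window of their own gene with over 90% of cytosines. Whether a Tnnt2 site lies in an exon, an intron or upstream of the gene is therefore not given here.

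The sequence around the sites was rebuilt from the base triplet that the files list for each cytosine. The letter n marks a base that no triplet gives, and capitals mark a CpG that was measured. The stretches below are shown because they hold the sites on which the results turn: the site with the smallest p of the 15 (offset 94), the pair of sites 6 bases apart whose levels parted between libraries (offsets 195 and 201), and the 4 close sites around the dip at offset 224 of Tnnt2_2 (offsets 209 to 240).
Tnnt2_1, offsets 86 to 99: cagcagctCGccat
Tnnt2_1, offsets 191 to 203: cttcCGccagCGg
Tnnt2_1, offset 350: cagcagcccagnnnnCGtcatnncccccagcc
Tnnt2_1, offset 420: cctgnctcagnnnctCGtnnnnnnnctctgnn
Tnnt2_2, offsets 204 to 242: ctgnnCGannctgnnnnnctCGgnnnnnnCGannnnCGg
The windows around offsets 350 and 420 are the least methylated places of the gene in these amplicons. In Tnnt2_1 the CpG at offset 118 follows the one at 94 by 24 bases, and the one at 350 follows the one at 201 by 149 bases. In Tnnt2_2 the 4 sites of the printed cluster follow each other at 15, 9 and 7 bases.

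Tnnt2_1 fell from a highly methylated end to a sparsely methylated end in every library, while every site of Tnnt2_2 carried at least 54.0% in every library. In negative siRNA, offset 94 of Tnnt2_1 carried 91.5%, offset 118 carried 76.2% and offset 201 carried 75.4% methylation. Offset 195, between the last 2 of these, carried 57.6% in the mean, so the descent was not even and a line only summarises it. Offset 350 carried 27.3% and offset 420 carried 11.6% in the same libraries. Fitted as a straight line, the level of Tnnt2_1 changed by -23.2 ± 1.02 percentage points per 100 bp (SD, n = 9 libraries). The slope was negative in 9 of 9 libraries, from -24.5 to -21.5, with an exact two-sided sign-flip p of 0.0039, which is the smallest that 9 libraries can give. The sign-flip tests over all 9 libraries, here and below, treat the libraries as independent. Whether libraries that share a replicate number are independent was not tested. Between its outermost sites the level dropped from offset 94 to offset 420 by 70.9 to 83.1 points, depending on the library.

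**Figure D1:**
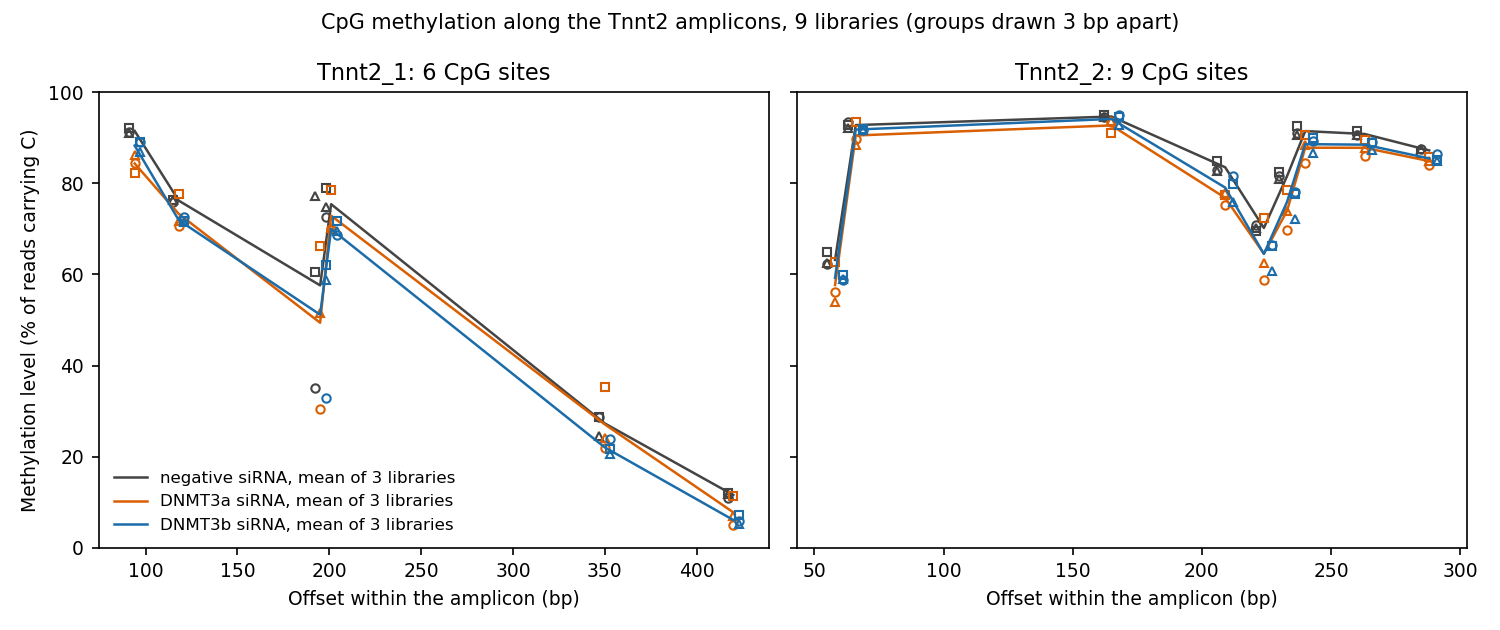
Methylation level in percent of reads carrying C (y axis) against offset within the amplicon in bp (x axis) for the 6 CpG sites of Tnnt2_1 (left) and the 9 of Tnnt2_2 (right). Lines are the means of 3 libraries per siRNA and symbols are single libraries (circle, square and triangle for replicates 1, 2 and 3, groups drawn 3 bp apart). The level of Tnnt2_1 descends to 11.6% at offset 420 in negative siRNA, Tnnt2_2 dips at offsets 58 and 224, and the libraries part widely at offset 195.

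Along Tnnt2_2 the level rose slightly, by 3.51 ± 0.74 points per 100 bp (SD, n = 9). This slope was positive in 9 of 9 libraries, from 2.40 to 4.91 (exact two-sided sign-flip p = 0.0039). A line describes this region poorly, because adjacent sites differed by more than the whole trend. Offset 66 stood above offset 58, 8 bases before it, by 31.6 ± 2.01 points, and by 28.0 to 34.3 points in single libraries. Offset 240 stood above offset 224, 16 bases before it, by 22.9 ± 2.76 points, and by 18.2 to 25.9 points in single libraries. The order of both pairs was thus the same in all 9 libraries. In negative siRNA the sites at offsets 66, 165, 240 and 263 carried between 90.8% and 94.6%, offset 288 carried 87.2%, and offsets 209 and 233 carried 83.5% and 81.6%. Offset 224 carried 70.2% and offset 58 carried 63.2% there.

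As a mean over sites, Tnnt2_2 stood above Tnnt2_1 by 27.9 ± 3.14 points (SD, n = 9). The difference lay between 23.8 and 33.0 points, with the same direction in 9 of 9 libraries (exact two-sided sign-flip p = 0.0039). The control libraries had 27.3 ± 3.67 points, the DNMT3a libraries 27.2 ± 3.32 and the DNMT3b libraries 29.2 ± 3.31 (SD, n = 3 each). The contrast between the regions thus differed between groups by less than its spread between libraries. Exact permutation p-values were 0.90 for DNMT3a against negative siRNA and 0.50 for DNMT3b against negative siRNA. With 3 libraries against 3 such a test cannot give a p below 0.10. The spread went in part with replicate number. The replicates 1 of negative, DNMT3a and DNMT3b siRNA had 31.4, 30.4 and 33.0 points, and the other libraries 23.8 to 27.7. Between libraries of the same number, DNMT3b siRNA was above the control in every pair (exact sign-flip p = 0.25, the smallest possible). DNMT3a siRNA was below it in 2 of 3 pairs. Whether the numbers pair the libraries was not tested.

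Both knockdowns left every Tnnt2 site with a lower mean level than negative siRNA, but by small amounts, and no single site passed the test. The site test was edgeR's quasi-likelihood test on methylated and unmethylated reads, two-sided, with Benjamini-Hochberg adjustment over the 310 sites, and sites were called at an adjusted p under 0.05. The mean was lower at 15 of 15 Tnnt2 sites after DNMT3a siRNA, where 60.6% of all tested sites were lower. It was lower at 15 of 15 after DNMT3b siRNA, where 68.7% of all tested sites were lower. The 2 comparisons use the same negative siRNA libraries, so these counts are not separate evidence. The sites of an amplicon share reads and cells, so they are not separate measurements either. Of the 310 sites, only 177 had mean levels between 2% and 98%, as all 15 Tnnt2 sites did. Site shares and medians of the panel, here and below, are over all 310 sites and were not matched to Tnnt2 in level.

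For DNMT3a against negative siRNA, the median log2 odds ratio of methylation over the Tnnt2 sites was -0.45, against -0.11 over all sites. For DNMT3b against negative siRNA it was -0.40, against -0.14 over all sites. In points, the median difference of a Tnnt2 site was -3.65 after DNMT3a siRNA and -4.28 after DNMT3b siRNA. At an adjusted p under 0.05 edgeR called 0 Tnnt2 sites and 0 of 310 panel sites (0.0% called) in each of the 3 comparisons. At an unadjusted p under 0.05, 7 Tnnt2 sites were lower after DNMT3a siRNA, with 8.06% of panel sites so counted, and 4 after DNMT3b siRNA, with 10.0% so counted. Over the whole panel and both directions, 39 and 34 sites (12.6% and 11.0%) had an unadjusted p under 0.05 in these comparisons, and 23 (7.42%) in DNMT3a against DNMT3b siRNA. limma called 0 panel sites in each comparison. DESeq2 called 4 panel sites in DNMT3a against negative siRNA, of which 2 were Tnnt2 sites (offsets 94 and 209; with the replicate number as a block, offset 209 had a DESeq2 adjusted p of 0.103 and was not called), 0 in DNMT3b against negative siRNA, and 7 in DNMT3a against DNMT3b siRNA, of which 0 were Tnnt2 sites.

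**Figure D2:**
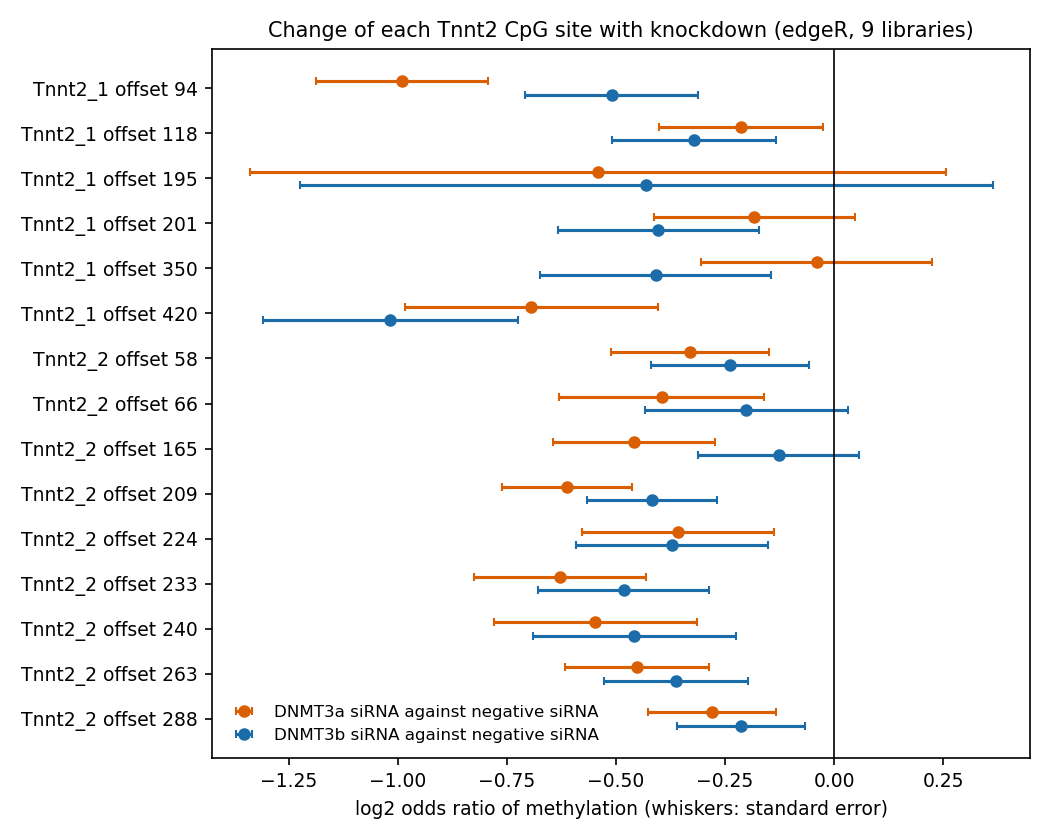
Log2 odds ratio of methylation against negative siRNA (x axis) for each of the 15 Tnnt2 sites (y axis), from edgeR on 9 libraries, for DNMT3a siRNA (orange) and DNMT3b siRNA (blue). Whiskers are standard errors. All points lie below 0, from -1.02 to -0.040, and none passed the adjusted threshold.

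Counted by overlap of libraries, DNMT3b siRNA separated from the control at more Tnnt2 sites than DNMT3a siRNA did, a difference in counts that was not tested. After DNMT3b siRNA, 13 of 15 Tnnt2 sites had all 3 libraries below all 3 negative libraries, where 18.4% of all tested sites did. The other two were offset 195 of Tnnt2_1 and offset 165 of Tnnt2_2. After DNMT3a siRNA, 6 of 15 did, where 10.6% of all tested sites did. These were offset 94 of Tnnt2_1 and offsets 165, 209, 233, 263 and 288 of Tnnt2_2.

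The smaller count after DNMT3a siRNA went with 1 library, replicate 2. This library was the highest of the 3 DNMT3a libraries at 12 of 15 sites, and it lay above every negative library at 4 of them, where 34.5% of all tested sites did. DNMT3a replicate 1 lay below every negative library at 15 of 15 sites and replicate 3 at 14 of 15, whereas replicate 2 did so at 6. Over all tested sites the shares below every negative library were 46.8%, 38.7% and 19.0% for DNMT3a replicates 1, 3 and 2. Without replicate 2, 14 of 15 sites had no overlap and all 15 were lower, where 26.8% and 73.2% of all tested sites were. Among the DNMT3b libraries, each lay below every negative library at 14 of 15 sites, where 39.4% to 44.8% of all tested sites did. With each other library left out in turn, the mean was lower at 13 to 14 sites after DNMT3a siRNA and at 14 to 15 sites after DNMT3b siRNA. Of all tested sites, 55.8% to 63.2% and 63.2% to 73.9% were lower in these fits. Lower without overlap were then 6 to 7 Tnnt2 sites after DNMT3a siRNA, where 12.9% to 21.3% of all tested sites were. After DNMT3b siRNA there were 13 to 14, where 24.5% to 29.7% of all tested sites were.

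At offset 94 of Tnnt2_1 the negative libraries carried 91.3%, 92.2% and 90.9%, the DNMT3a libraries 84.5%, 82.2% and 86.3%, and the DNMT3b libraries 89.0%, 89.0% and 86.8%. The 3 groups did not overlap here: negative siRNA was highest, DNMT3b siRNA intermediate and DNMT3a siRNA lowest. Its log2 odds ratio for DNMT3a against negative siRNA was -0.99 ± 0.20 (SE), with an unadjusted edgeR p of 0.00069 and an adjusted p of 0.169. Across the alternative settings that adjusted p ranged from 3.28e-06 to 0.435, so the call depended on the model. The direct comparison of the knockdowns gave -0.48 ± 0.20, DNMT3a siRNA being lower (edgeR adjusted p = 0.550). Of the 15 sites, offset 94 alone had no overlap between the knockdowns in that direction, where 6.45% of all tested sites did.

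At offset 420, the least methylated site, the negative libraries carried 11.0%, 12.1% and 11.8%. The DNMT3b libraries carried 5.8%, 7.3% and 5.3%, and the DNMT3a libraries 5.1%, 11.3% and 7.0%. The DNMT3b libraries and DNMT3a replicates 1 and 3 lay well below the control, and DNMT3a replicate 2 lay among it. The log2 odds ratio was -1.02 ± 0.29 for DNMT3b siRNA (edgeR adjusted p = 0.441) and -0.69 ± 0.29 for DNMT3a siRNA (edgeR adjusted p = 0.375). This site had the fewest reads of the 15, 842 to 1150 in a library, and its 95% Wilson intervals reached 2.02 points to either side. At the other 14 sites they reached at most 0.954 points. These intervals cover counting error only, since reads of PCR products without molecular identifiers are not independent molecules.

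Offset 350 lay on the same sparsely methylated side. The negative libraries carried 28.6%, 28.7% and 24.6% and the DNMT3b libraries 23.8%, 21.6% and 20.6%. The DNMT3a libraries carried 21.9%, 35.3% and 24.1%, so that replicate 2 was above every control library and the other two were below. The mean of DNMT3a siRNA, 27.1%, hence nearly equalled that of negative siRNA, 27.3%, with a log2 odds ratio of -0.040 ± 0.26. The sign turned without DNMT3a replicate 1 (0.15), DNMT3a replicate 3 (0.063), negative replicate 1 (0.0087) or negative replicate 2 (0.012). At offsets 118 and 201 the DNMT3b libraries also lay below all controls, at 71.5% to 72.6% against 76.0% to 76.3%, and at 68.7% to 71.6% against 72.6% to 78.8%.

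Offset 195 stood apart from its neighbours, because its level varied far more between libraries of the same siRNA than between siRNAs. It carried 35.1%, 60.5% and 77.1% in negative siRNA, 30.4%, 66.3% and 51.5% in DNMT3a siRNA, and 32.8%, 62.0% and 58.7% in DNMT3b siRNA, in the order of replicates 1, 2 and 3. All 3 replicates numbered 1 were thus the lowest of their group. Its SD within groups was 18.5 points, which ranked 2 of 310 sites, against 0.74 to 4.51 points at the other 14 Tnnt2 sites. The median over the 177 panel sites with mean levels between 2% and 98% was 2.72 points. Counting error at its depth would give an SD of 0.33 points. Its log2 odds ratios, -0.54 ± 0.80 for DNMT3a siRNA and -0.43 ± 0.79 for DNMT3b siRNA (edgeR adjusted p = 0.782 and 0.879), therefore had wide errors. They turned to 0.097 and 0.21 without negative replicate 3. Without DNMT3a replicate 1 the value for DNMT3a siRNA was 0.027, and without DNMT3b replicate 1 that for DNMT3b siRNA was 0.10.

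Of the within-group sum of squares at offset 195, 87.0% lay between replicate numbers. The share to be met without any link to the number was not computed. Only number 1 stood apart, with a mean of 32.8%, against 62.9% for number 2 and 62.4% for number 3. The libraries numbered 3 ranged from 51.5% to 77.1%. The next CpG, offset 201, lies 6 bases on and carried 68.7% to 78.8% in the same libraries. Offset 201 stood above offset 195 by 37.5, 39.5 and 35.9 points in the replicates 1 of negative, DNMT3a and DNMT3b siRNA. In the other 6 libraries the gap was -2.46 to 18.6 points. Replicate number also took 82.3% of the within-group sum of squares at offset 201, but over a far smaller SD of 3.51 points. What the replicate number stands for (a litter, a day or a conversion batch) is not given in the labels, and its part in this site was not tested.

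**Figure D3:**
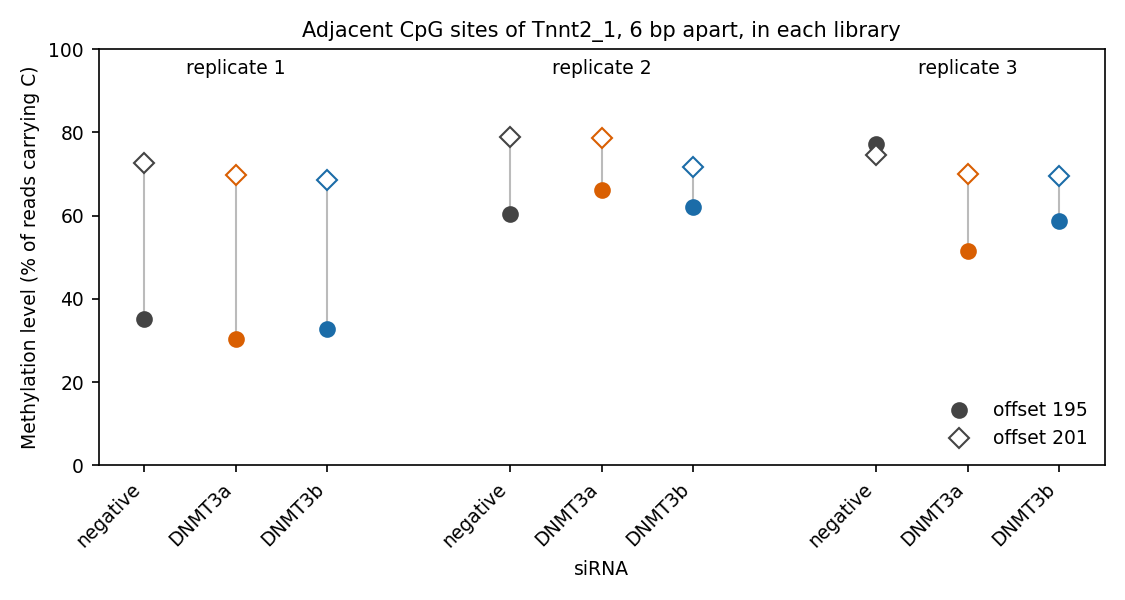
Methylation level in percent (y axis) of the adjacent Tnnt2_1 sites at offsets 195 (filled circles) and 201 (open diamonds), 6 bp apart, in each of the 9 libraries (x axis), ordered by replicate number and coloured by siRNA. The 3 libraries numbered 1 lie between 30.4% and 35.1% at offset 195, while offset 201 stays between 68.7% and 78.8% in all 9.

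In Tnnt2_2 the means of the adjacent offsets 209, 224 and 233 differed from the control by -7.59 to -5.64 points after DNMT3a siRNA and by -5.69 to -4.45 points after DNMT3b siRNA. The other 6 sites of the region differed by -5.50 to -1.95 and by -3.93 to -0.53 points. On the log2 odds scale the 3 sites were not set apart as a group: offset 224 had -0.36 after DNMT3a siRNA, against -0.55 at offset 240, and after DNMT3b siRNA offset 240 had -0.46, against -0.42 at offset 209 and -0.37 at offset 224. At offset 209 the negative libraries carried 82.9%, 84.8% and 82.7%, the DNMT3a libraries 75.2%, 77.4% and 77.8%, and the DNMT3b libraries 81.5%, 79.9% and 75.8%. Every library of both knockdowns was below every control library. The log2 odds ratio was -0.61 ± 0.15 for DNMT3a siRNA (edgeR adjusted p = 0.193) and -0.42 ± 0.15 for DNMT3b siRNA (edgeR adjusted p = 0.441). Across alternatives the adjusted p for DNMT3a siRNA ranged from 0.0351 to 0.538.

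At offset 233 the controls carried 81.5%, 82.4% and 80.9%, the DNMT3a libraries 69.7%, 78.4% and 73.9%, and the DNMT3b libraries 78.0%, 77.7% and 72.1%. Again both knockdowns lay wholly below the control. Its mean difference from the control was -7.59 points after DNMT3a siRNA and -5.64 points after DNMT3b siRNA, with edgeR adjusted p-values of 0.365 and 0.441. At offset 224, 9 bases before it, the controls carried 70.9%, 69.6% and 70.1%, the DNMT3b libraries 66.4%, 66.2% and 60.8%, and the DNMT3a libraries 58.7%, 72.4% and 62.5%. DNMT3a replicate 2 exceeded all controls at this site and the other two DNMT3a libraries fell below them.

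At offset 165, the most methylated site of the gene in these regions, the controls carried 94.5%, 94.8% and 94.5%, the DNMT3a libraries 93.4%, 90.9% and 93.7%, and the DNMT3b libraries 95%, 94.5% and 92.8%. The DNMT3a libraries were all below the control here, and 1 DNMT3b library was above it. Its log2 odds ratio for DNMT3b siRNA, -0.13 ± 0.19 (edgeR adjusted p = 0.835), turned to 0.033 without DNMT3b replicate 3. At this site and at offset 94, DNMT3a replicate 2 was the lowest of its group. The remaining sites of Tnnt2_2, at offsets 58, 66, 240, 263 and 288, differed in mean from the control by -5.50 to -2.28 points after DNMT3a siRNA and by -3.93 to -0.98 points after DNMT3b siRNA. At all 5 the DNMT3b libraries lay below the controls without overlap, and at offsets 263 and 288 the DNMT3a libraries did too.

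Averaged over sites, Tnnt2_2 carried 83.8%, 84.4% and 83.5% in the negative libraries, 77.5%, 82.4% and 79.0% in the DNMT3a libraries, and 81.8%, 81.5% and 79.0% in the DNMT3b libraries. Neither knockdown overlapped the control. The means were 83.9% ± 0.49, 79.6% ± 2.50 and 80.8% ± 1.53 (SD, n = 3 each). The differences from the control were -4.30 and -3.13 points, each with an exact permutation p of 0.10, the smallest possible. Of the panel's 26 regions, 19.2% lay lower without overlap in each of these comparisons.

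With reads summed over the region, edgeR gave Tnnt2_2 a log2 odds ratio of -0.45 ± 0.13 for DNMT3a siRNA (adjusted p = 0.0935 over 26 regions). For DNMT3b siRNA the edgeR value was -0.34 ± 0.13 (adjusted p = 0.315). No region of the panel was called (0.0%) in any comparison, and 3, 4 and 3 regions (11.5%, 15.4% and 11.5%) had an unadjusted p under 0.05 in DNMT3a against negative, DNMT3b against negative and DNMT3a against DNMT3b siRNA. limma called 0 regions in each, and DESeq2 called 3, 0 and 3. Tnnt2_2 was among those of DNMT3a against negative siRNA, with a DESeq2 adjusted p of 0.0186. Without DNMT3a replicate 2 the Tnnt2_2 value became -0.56 and passed edgeR's threshold at an adjusted p of 0.0205. That fit called 3 of the 26 regions. With any other library of the comparison left out, the value was -0.48 to -0.35 and did not pass (edgeR adjusted p = 0.228 to 0.332).

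**Figure D4:**
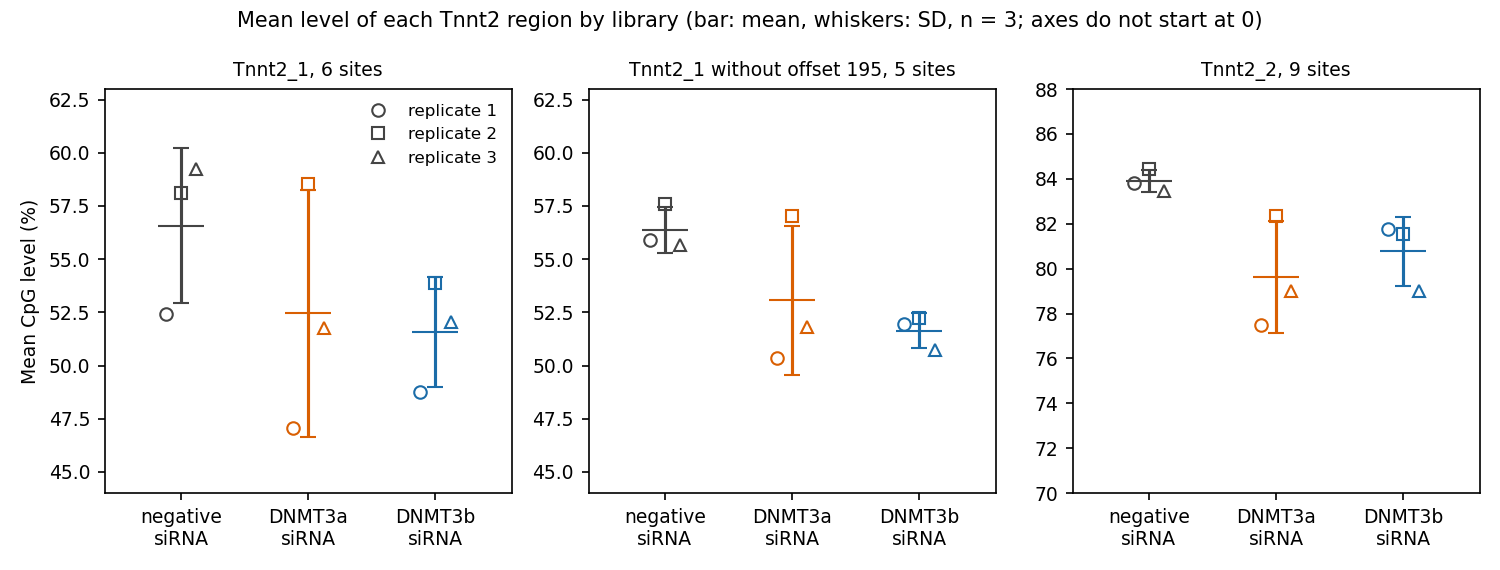
Mean CpG level in percent (y axis) of Tnnt2_1, of Tnnt2_1 without its site at offset 195, and of Tnnt2_2, in each library by siRNA (x axis). Horizontal bars are means and whiskers SDs of 3 libraries, and the axes do not start at 0. For Tnnt2_2 both knockdowns lie below the control without overlap, and DNMT3a replicate 2 (square) lies nearest to it at 82.4%.

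The mean of Tnnt2_1 was less precise. It was 52.4%, 58.1% and 59.2% in the negative libraries, 47.0%, 58.6% and 51.8% in the DNMT3a libraries, and 48.8%, 53.9% and 52.1% in the DNMT3b libraries. All groups overlapped, with differences from the control of -4.13 points for DNMT3a siRNA (exact permutation p = 0.30) and -5.02 points for DNMT3b siRNA (exact permutation p = 0.20). The edgeR values of the region were -0.28 ± 0.27 (adjusted p = 0.651) and -0.32 ± 0.26 (adjusted p = 0.493).

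Without offset 195, a choice made after its values were seen, the means of Tnnt2_1 were 56.4% ± 1.08, 53.1% ± 3.50 and 51.6% ± 0.81 in negative, DNMT3a and DNMT3b siRNA (SD, n = 3 each). DNMT3b siRNA then lay below the control without overlap, with a difference of -4.74 points (exact permutation p = 0.10), and DNMT3a siRNA still overlapped it. The overlap of DNMT3b siRNA with the control in the mean of 6 sites therefore rested on this single site.

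Outside CpG, a cytosine still read as C mostly reflects incomplete conversion. Of non-CpG cytosine calls at Tnnt2_1, 0.207% to 0.219% were C in the negative libraries and 0.197% to 0.220% in the DNMT3b libraries. The DNMT3a libraries carried 0.491%, 0.448% and 0.191%. At Tnnt2_2 all 9 libraries lay between 0.171% and 0.204%. The higher values of DNMT3a replicates 1 and 2 are below 0.5 points, and their part in the Tnnt2_1 levels was not tested.

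The gradient of Tnnt2_1 was kept in each group, with slopes of -23.4 ± 1.10, -22.3 ± 0.80 and -23.9 ± 0.69 points per 100 bp in negative, DNMT3a and DNMT3b siRNA (SD, n = 3 each). DNMT3a siRNA had the shallower slope of the 2 knockdowns in all libraries, by 1.54 points per 100 bp in the mean (exact permutation p = 0.10), and both overlapped the control. The nearest libraries of the 2 knockdowns almost touched, at -23.06 in DNMT3a replicate 3 and -23.08 in DNMT3b replicate 1. Without offset 195 the slope of DNMT3b siRNA lay below the control without overlap, by a difference of -0.54 points per 100 bp (exact permutation p = 0.10), and DNMT3a siRNA still overlapped it. The slopes of Tnnt2_2 were 3.70 ± 0.26, 3.58 ± 1.17 and 3.25 ± 0.79 points per 100 bp and overlapped between all groups. Over the 24 such exact tests of library values the smallest Benjamini-Hochberg adjusted p was 0.30.

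Between the knockdowns directly, 10 Tnnt2 sites were lower and 5 higher in DNMT3a than in DNMT3b siRNA, where 41.6% of all sites were lower. All 5 higher sites had overlapping libraries. The regions leaned apart: 4 of the 6 Tnnt2_1 sites were higher and 8 of the 9 Tnnt2_2 sites lower in DNMT3a siRNA. This split was not tested. The number of lower sites depended on the library left out: it was 13 of 15 without DNMT3a replicate 2, where 56.1% of all sites were lower, and 6 of 15 without DNMT3a replicate 1, where 37.7% were.

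The other troponin genes of the panel give the nearest comparison. Over its 14 tested sites, Tnni3 was lower at 13 in each knockdown, with median log2 odds ratios of -0.14 for DNMT3a siRNA and -0.20 for DNMT3b siRNA. Over the 15 tested sites of Tnnc1, 11 and 15 were lower, with medians of -0.11 and -0.08. Over the 56 tested sites of all other contractile genes (Tnni3, Tnnc1 and the myosin heavy chain genes Myh6, Myh7 and Myh7b), 46 were lower after DNMT3a siRNA and 52 after DNMT3b siRNA. Their median log2 odds ratios were -0.17 and -0.14, against -0.11 and -0.14 over the whole panel, and their median differences were -2.06 and -1.53 points, against -0.094 and -0.24 points. The panel medians include the sites with mean levels outside 2% to 98%, so they are not matched in level. None of the 56 sites was called by edgeR. At an unadjusted edgeR p under 0.05, 7 and 2 of them were lower, where 8.06% and 10.0% of all tested sites were. In mean level, 60.6% and 68.7% of all tested sites were lower.

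The mean of both Tnnt2 regions stood above the mean of the Tnni3 and Tnnc1 regions by 8.04 ± 0.83 points in the control, by 5.26 ± 1.16 after DNMT3a siRNA and by 5.81 ± 0.62 after DNMT3b siRNA (SD, n = 3 each). In single libraries it was 7.23, 8.89 and 8.01 points in the control, 4.02, 6.31 and 5.46 after DNMT3a siRNA, and 5.82, 6.43 and 5.18 after DNMT3b siRNA. Neither knockdown overlapped the control, with differences of -2.78 and -2.24 points. Each had an exact permutation p of 0.10, the smallest possible, and adjusted p-values of 0.30. Exact tests with 3 libraries a group cannot reach the threshold. Against each gene alone the separation was less complete. Tnnt2 stood above Tnni3 by 11.3, 11.7 and 10.6 points in the control, by 10.6, 7.24 and 9.64 after DNMT3a siRNA and by 11.5, 10.3 and 8.46 after DNMT3b siRNA, so that both knockdowns overlapped the control. Its difference from Tnnc1 was 3.14, 6.08 and 5.42 points in the control, -2.61, 5.38 and 1.28 after DNMT3a siRNA and 0.13, 2.52 and 1.91 after DNMT3b siRNA. There DNMT3a siRNA overlapped the control and DNMT3b siRNA did not.

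DNMT3a replicate 2 also stood high in Tnni3, at 58.7% in Tnni3_1 against 51.7% to 56.9% in the control. It was 67.7% in Tnni3_2, against 61.9% to 64.6%. It was 90.8% in Tnnc1_1, within the control's 89.7% to 91.3%, and 39.3% in Tnnc1_2, below the control's 40.0% to 40.6%. This library thus stood above the control in both Tnni3 regions and in neither Tnnc1 region.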

How the data were processed

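Bisulfite amplicons of 9 libraries (3 per siRNA) were sequenced on a MiSeq after Nextera tagmentation, per the labels' protocols. The submitters' processing notes name FastQC, Bismark, Bowtie2 and the build mm10, while versions and settings are not given in the sources used here. Per the file headers, each deposited file gives for every cytosine its coverage (a read count) and how large a percent of its reads showed C or T. Coverage times percent was whole within 0.01 reads for 23884 of 23884 values, and gave the methylated counts.

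CpG sites with at least 30 reads in all 9 libraries were kept. Sites and summed regions were tested with edgeR 4.0.16 (R 4.3.3; quasi-likelihood, a coefficient per library, all 9 libraries, no block), adjusted over 310 sites or 26 regions. For library values, exact permutation tests (two-sided) were used, and sign flips for values over all 9, with scipy 1.17.1 and numpy 2.4.6. Tested on simulated data for the 310 sites and the comparison of DNMT3a with negative siRNA, edgeR called 76.7% of 30 sites at a log2 odds ratio of -1, 86.7% of 30 at -2, and 1.2% of 250 that were not altered. No smaller effect was simulated, so these rates do not apply at the Tnnt2 medians of -0.45 and -0.40. Altered sites were drawn with the lowest and highest levels left out, and no effect of replicate number was simulated. Adjusted p-values also depend on how many sites are altered. The rates therefore need not hold at -1 in the data, where edgeR called neither offset 94 after DNMT3a siRNA (-0.99) nor offset 420 after DNMT3b siRNA (-1.02). The alternatives were limma 3.58.1 with a prior count of 2, DESeq2 1.42.0, other coverage minimums, site ranges, summaries and scales, a replicate block, and each library left out; a fit without offset 195, other edgeR settings, and blocks in DESeq2 and limma were added after seeing the data. Every tested Tnnt2 site is named, and other contractile genes enter as counts and medians. The members and lists were chosen with earlier results of these data known.

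Groups share replicate numbers. Deviations from group means over 310 sites correlated between same-numbered libraries at -0.23 to 0.46 for DNMT3a and negative siRNA, where not every pair was over 0.1. They correlated at 0.12 to 0.40 for DNMT3b and negative siRNA, and at 0.17 to 0.33 for DNMT3a and DNMT3b siRNA, where every pair was over 0.1. The value of 0.1 was a set threshold, and correlations between differently numbered libraries were not compared. Whether the numbers pair the libraries was therefore not tested, and the labels do not state it.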

Additional observations from a re-analysis of the deposited data

Results flagged for a closer look

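Of the non-CpG cytosine calls of Tnnt2_1, 0.491% were C in DNMT3a siRNA replicate 1 and 0.448% in DNMT3a siRNA replicate 2. Both shares were above the 0.207% to 0.219% of the negative siRNA libraries. The 95% Wilson intervals of these 2 DNMT3a libraries were 0.481% to 0.502% and 0.437% to 0.458%, and cover counting error only. The excess was spread over the amplicon: 84 and 80 of 107 cytosines were above every negative library in these 2 libraries, against 26 to 39 in the other 4 knockdown libraries. DNMT3a replicate 3 carried 0.191%. In Tnnt2_2 the same 2 libraries carried 0.177% and 0.194%, within or below the 0.185% to 0.204% of the control, and over all regions they carried 0.224% and 0.229%. These cytosines enter no comparison of CpG levels.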

How the results depend on the processing

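With the replicate number as a block, edgeR called 0 sites and 0 regions in each comparison, and the block changed no call of edgeR, limma or the exact tests. With the block, the edgeR value of Tnnt2_2 in DNMT3a against negative siRNA was -0.45 (adjusted p = 0.144). DESeq2 with the block called 6 sites and 3 regions in DNMT3a against negative siRNA (Tnnt2_2 -0.45, adjusted p = 0.0213; offset 94 of Tnnt2_1, adjusted p = 0.00146), 1 site and 1 region in DNMT3b against negative siRNA, and 7 sites and 1 region in DNMT3a against DNMT3b siRNA.

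Without the block, DESeq2 called 4 sites and 3 regions in DNMT3a against negative siRNA (offsets 94 and 209 among the sites, the latter with an adjusted p of 0.103 and no call with the block; Tnnt2_2 -0.45), and 7 sites and 3 regions in DNMT3a against DNMT3b siRNA. In DNMT3a against negative siRNA, edgeR called 2 sites among those between 2% and 98%, where fewer sites were tested (Tnnt2_1 offset 94, adjusted p = 0.0225), and 2 with legacy set to FALSE and robust fits (offset 94, adjusted p = 0.0484). The difference between the regions (Tnnt2_2 minus Tnnt2_1), -0.17 points in that comparison, was 2.62 points with the median over sites; the cause was not tested.

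Leaving out each library moved the regions called in DNMT3a against negative siRNA over 0 to 3 (3 without DNMT3a replicate 2) and the Tnnt2_2 log2 odds ratio there over -0.56 to -0.35. In DNMT3a against negative siRNA, offset 195 ranged over -1.22 to 0.097, offset 350 over -0.33 to 0.15, the Tnnt2_2 slope difference over -0.79 to 0.30 points per 100 bp and the difference between regions over -1.80 to 1.86 points. In DNMT3b against negative siRNA, offset 195 ranged over -1.11 to 0.21, offset 165 over -0.24 to 0.033, the Tnnt2_1 slope difference over -0.99 to 0.11 and the difference between regions over -0.017 to 3.91 points. In DNMT3a against DNMT3b siRNA the Tnnt2_1 log2 odds ratio ranged over -0.18 to 0.25, its mean over -2.16 to 3.59 points, and the Tnnt2_2 slope over -0.34 to 0.75. Sites in that comparison ranged over -0.055 to 0.21 (offset 118), -0.65 to 0.46 (195), -0.023 to 0.60 (420), -0.24 to 0.018 (58), -0.24 to 0.20 (224), -0.32 to 0.012 (233), -0.29 to 0.13 (240) and -0.21 to 0.025 (263). The remaining 1124 values under alternatives kept their direction and their side of the threshold. With 3 libraries a group the exact tests cannot pass 0.05, so their steadiness says nothing.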

Other observations

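A few non-CpG cytosines near the ends of the amplicons carried C in many reads in all 9 libraries. In Tnnt2_1, offset 430 carried 23.2% on average (17.9% to 32.7%) from 36 to 60 reads. In Tnnt2_2, offset 326 carried 20.4% (8.03% to 30.7%) from 890 to 1307 reads, and offset 321 carried 4.86% (3.37% to 6.55%) from 1042 to 1555 reads. Offset 12 of Tnnt2_2 carried 18.4% (7.97% to 28.4%) from 46 to 138 reads. Among non-CpG cytosines with at least 30 reads, 1 of 107 in Tnnt2_1 and 6 of 48 in Tnnt2_2 exceeded 2% on average, while the medians were 0.209% and 0.168%.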
